A study of Homo sapiens with 120 samples.

Results

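The S100 calcium-binding proteins described here are 9 genes, S100A6, S100A10, S100A11, S100A16, S100A14, S100A13, S100A4, S100A2 and S100P, taken by name from the 30504 rows of 1 expression table. Each name stood on 1 row. The table holds 120 RNA sequencing libraries of CFPAC-1, an established human pancreatic ductal adenocarcinoma line. In the first experiment untreated cells were picked on microrafts, small releasable elements of a culture array, or trapped by the microfluidic Fluidigm C1. It held 10 rafts each with 0, 1 and 2 cells, 5 C1 captures each with 0, 1 and 2 cells, and 4 bulk RNA libraries. The rafts came in 2 sets of library names with repeated index pairs, 5 rafts of each kind per set. In the second experiment rafts were scored as proliferative or nonproliferative in 4 arms: untreated, saline, and gemcitabine at 2 nM or 5 nM, a cytidine analog that blocks DNA synthesis. Each arm held 8 proliferative and 8 nonproliferative rafts, whose number of cells the labels give as unknown, so the number of cells and the class of a raft cannot be told apart there. Index pairs repeat between the arms, so arm and library pool cannot be told apart either. Another 7 libraries were water controls by their names. All groups are of this 1 line.

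S100 proteins are small, mostly dimeric proteins built on a pair of EF-hand motifs. On binding calcium most of them expose a surface that docks onto targets such as annexins, cytoskeletal proteins or receptors. Several are abundant in epithelial cells, and S100P is known for its high level in pancreatic ductal adenocarcinoma. Of these 9 genes, 8 lie in the S100 cluster on chromosome 1 and S100P lies on chromosome 4 (gene order from RefSeq). Within the cluster S100A16 and S100A14 are neighbours, and S100A6 and S100A4 stand on either side of S100A5. S100A4 overlaps S100A5, and S100A13 overlaps S100A1. The sources used here do not say whether counting used strand, so reads of such pairs may be shared.

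All 9 genes matched a promoter in RefSeq (GRCh38.p14), while the expression values are on hg19. The 250 bases before the outermost listed start are shown for the 4 members that passed the test of proliferation given further on. Capitals mark matches on either strand to 4 motifs. The TATA box was searched as TATAAA. The GC box was searched as GGGCGG and the binding site of AP-1 as TGANTCA. The last motif was the CCAAT box, by the letters of its name.
S100A6 (chr1:153535992-153536241, minus strand): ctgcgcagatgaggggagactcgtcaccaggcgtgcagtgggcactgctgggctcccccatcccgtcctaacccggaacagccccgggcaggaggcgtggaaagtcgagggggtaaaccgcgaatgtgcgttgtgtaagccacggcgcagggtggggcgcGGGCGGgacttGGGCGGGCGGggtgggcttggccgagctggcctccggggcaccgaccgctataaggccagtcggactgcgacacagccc
S100A4 (chr1:153545807-153546056, minus strand): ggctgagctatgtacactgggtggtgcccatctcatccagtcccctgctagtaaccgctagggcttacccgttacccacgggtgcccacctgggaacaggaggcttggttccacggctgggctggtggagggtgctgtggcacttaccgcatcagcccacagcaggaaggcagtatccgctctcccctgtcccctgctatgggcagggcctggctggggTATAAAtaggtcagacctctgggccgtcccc
S100A16 (chr1:153613138-153613387, minus strand): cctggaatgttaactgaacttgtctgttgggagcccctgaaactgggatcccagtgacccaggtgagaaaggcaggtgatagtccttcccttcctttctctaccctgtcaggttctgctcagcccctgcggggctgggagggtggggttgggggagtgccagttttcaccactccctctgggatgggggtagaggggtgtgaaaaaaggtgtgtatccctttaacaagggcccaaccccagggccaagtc
S100A14 (chr1:153616326-153616575, minus strand): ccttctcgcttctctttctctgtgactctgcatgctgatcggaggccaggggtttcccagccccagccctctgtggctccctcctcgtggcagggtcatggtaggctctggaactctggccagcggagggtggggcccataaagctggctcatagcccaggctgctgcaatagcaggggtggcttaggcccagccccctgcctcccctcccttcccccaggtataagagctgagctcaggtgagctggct
The S100A4 window holds 1 TATA box, as does that of S100P, and 10.7% of 35116 promoter windows of this length hold one. S100A6 has 3 GC boxes, a motif found in 42.6% of the windows, of which the 2 nearest the start overlap. S100A16 and S100A14 hold none of the 4 motifs. Elsewhere among the members S100A10, S100A11 and S100A13 have 1 GC box each and S100A2 has 1 AP-1 site, which 6.57% of the windows hold. The CCAAT box, present in 32.0% of the windows, is in none of the 9. The 4 members shown share no motif of this set, and a match is a string of letters, not a shown binding site.

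Values are FPKM, which scale fragments by transcript length and library total, so levels of different genes can be set side by side. The table gives no counts, and the depth behind each value is unknown. Detection here means an FPKM of at least 1. An FPKM of exactly 0 may be a failed estimate and is written as listed at 0. The number of genes detected had a median of 6853 in rafts with 1 cell, 9180 in rafts with 2 cells, 9084 in C1 captures with 1 cell and 10480 in bulk. It was 3827 in proliferative and 1988 in nonproliferative rafts of the second experiment. Of 9 ductal epithelial markers with a row, 8 were at 1 FPKM or more in bulk, led by KRT18 with a median of 789 FPKM. CFTR was listed at 0 in all 4 bulk libraries. Summed fibroblast markers stayed at or below 1.65 FPKM and blood cell markers at or below 2.26 FPKM in bulk. Keratinocyte markers summed to 211 to 320 FPKM in bulk, where 2 of the 8 on that list reached 1 FPKM. In empty rafts the blood cell sum had a median of 0.0 and a highest value of 16133 FPKM. By raft set, its median was 4580 FPKM in empty rafts of set 1, and all empty rafts of set 2 were at 0.0.

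The members spanned a wide range of levels in bulk. S100A6, calcyclin, had 6561, 4468, 5226 and 6434 FPKM in the 4 bulk libraries. S100A11, a partner of annexin A1, had 2748, 2694, 3201 and 2818 FPKM. S100A10, which lost calcium binding and pairs with annexin A2, had 1624, 1109, 1324 and 1925 FPKM. These 3 genes stood in this order with no overlap between neighbours. S100A16, a widely expressed member with an atypical first EF hand, had 421, 550, 799 and 742 FPKM. S100A13, which takes part in the release of FGF1 without a signal peptide, had 293, 146, 161 and 249 FPKM. S100A4, known for promoting motility through nonmuscle myosin, had 145, 46.5, 88.2 and 77.5 FPKM. Each of these 3 again lay below the gene before it in every bulk library. S100A2, a member found in the nucleus of epithelial cells, had 42.3, 27.2, 42.3 and 28.7 FPKM. S100A14, expressed mainly in epithelia, had 23.0, 5.19, 18.3 and 28.4 FPKM. S100P, a ligand of the receptor AGER and of ezrin, had 16.3, 8.26, 3.57 and 20.3 FPKM. The ranges of S100A2 and S100A14 overlapped, as did those of S100A14 and S100P. Together the 9 members took a median of 1.52% of all FPKM in rafts with 1 cell, 1.83% in C1 captures with 1 cell and 1.54% in bulk.

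Cells of the first experiment come from cultures that the labels do not tell apart, so each group is taken as 1 sample and its comparisons are values with no test. Single cells on rafts held the same high members as bulk. S100A6 ran from 2419 through a median of 4448 to 7749 FPKM over the 10 rafts with 1 cell. S100A11 ran from 1809 through 2999 to 4689 FPKM and S100A10 from 574 through 1043 to 2181 FPKM. For S100A16 the lowest, median and highest rafts had 345, 778 and 1208 FPKM, and for S100A13 31.9, 159 and 455 FPKM. These 5 genes were detected in all 10 rafts. The 4 lower members were not: S100A4 was detected in 9 of 10, S100A2 in 7, S100A14 in 3 and S100P in 2. Their highest values were 761 FPKM for S100A4, 49.8 for S100A2, 32.5 for S100A14 and 96.7 for S100P.

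Blank libraries set the background for these levels. In 10 empty rafts the only value above 0 for any member was 528 FPKM of S100A6 in 1 raft. With that, 5 members, S100A6, S100A10, S100A11, S100A13 and S100A16, lay above all empty rafts in every raft with 1 cell. They were among the 7 members that passed the filter on low values, and 21.7% of 7382 genes had ranges apart in this direction. All 5 passed that filter through the rafts with 1 cell alone, so their place above empty rafts is only a description. Empty C1 captures carried more: S100A6 was detected in all 5, at 702, 1370, 103, 3430 and 321 FPKM. S100A10 and S100A13 were detected in 4 of these 5 captures, S100A11 in 3, and S100P once, at 966 FPKM. S100A16, S100A4 and S100A2 were listed at 0 in all 5. Of the 6 members that passed the filter there, only S100A16 stood above every empty capture in all 5 C1 captures with 1 cell, where 18.9% of 6942 genes did so. S100A16 passed that filter through the captures with 1 cell alone. Among 7 water libraries S100A11 was detected in 3, with 42396 FPKM in 1 library in which 81 genes were detected. S100A6 and S100A10 were each detected in 2 water libraries and S100A16 in 1, at 1904 FPKM.

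**Figure D1:**
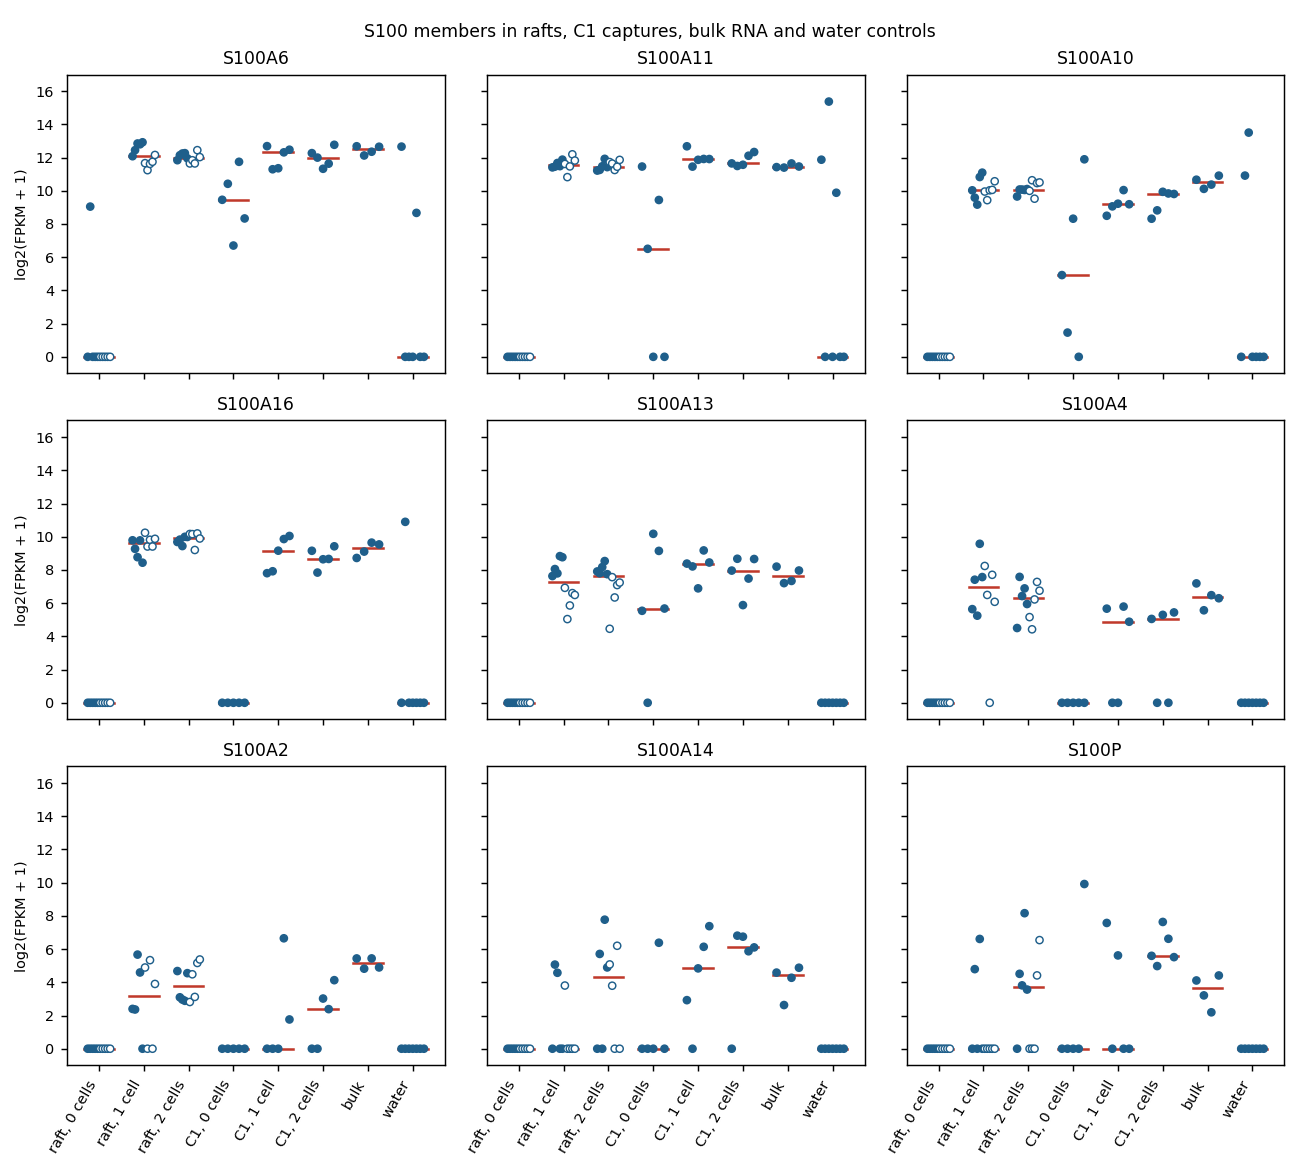
Level of each member, as log2(FPKM + 1) on the y axis, in rafts, C1 captures, bulk and water libraries on the x axis. Each point is a library, open points are rafts of set 2, and red lines are medians. S100A6, S100A11, S100A10, S100A16 and S100A13 lie well above 0 in all rafts with 1 or 2 cells, while S100A14 and S100P are listed at 0 in many of them.

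Rafts and C1 captures with 1 cell gave overlapping ranges for all 9 members, where 1.87% of 10176 genes were higher and 7.52% lower in rafts with ranges apart. For S100A6 the rafts averaged 12.15 ± 0.59 (SD, n = 10) on the log2(FPKM + 1) scale and the captures 12.03 ± 0.65 (SD, n = 5). For S100A11 the rafts averaged 11.58 ± 0.36 and the captures 11.97 ± 0.44. For S100A10 the C1 captures had 360, 533, 596, 1052 and 583 FPKM, and only 1 of these reached the raft median. The S100A10 difference, rafts minus C1, was 0.87 on the log2 scale. For S100A16 the difference was 0.52 and for S100A13 it was -1.02. The median difference was 0.13 over the 9 members and 0.32 over the 8 that passed the filter on low values, which S100P did not, beside -0.28 over the 10176 genes that passed it. With raft set 1 alone the median over the 9 was 0.25 and with raft set 2 alone -0.34.

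The low members were detected at different shares. S100A4 was detected in 9 of 10 rafts with 1 cell and in 3 of 5 C1 captures with 1 cell, where the captures had 49.9, 54.4 and 28.4 FPKM. S100A14 went the other way, with 3 of 10 rafts and 4 of 5 captures, the captures at 6.59, 27.6, 69.4 and 166 FPKM. With 2 cells S100A4 was detected in 10 of 10 rafts and 3 of 5 captures, and S100P in 6 of 10 rafts and 5 of 5 captures. S100P ran from 30.5 to 198 FPKM in the captures with 2 cells, above all 4 bulk libraries, as were 12% of 10176 genes.

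Against bulk, S100A10 was the member that lay apart in C1 captures: all 5 captures with 1 cell were below all 4 bulk libraries, and the difference was -1.32 on the log2 scale. In that comparison 13.8% of 9665 genes were lower with ranges apart, so 1 of 9 members is near the background. No member lay apart from bulk in rafts with 1 cell, where 0.591% of 9648 genes were higher and 2.26% lower with ranges apart. The ratio of S100A6 to S100A11 in the same library ran from 0.73 through a median of 1.47 to 2.49 in rafts with 1 cell, and from 1.63 through 1.97 to 2.39 in bulk. In C1 captures with 1 cell it ran from 0.70 through 1.01 to 1.48, while S100A6 and S100A11 each had ranges there that overlapped bulk. This is 1 pair of genes, and the ratios of other pairs were not computed.

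The high members had near medians in rafts with 2 cells and with 1 cell. S100A6 had a median of 4073 FPKM in rafts with 2 cells and 4448 FPKM in rafts with 1 cell. S100A11 had 2816 FPKM with 2 cells and 2999 FPKM with 1 cell. The 2-cell minus 1-cell difference was between -0.15 and 0.38 on the log2 scale for S100A6, S100A10, S100A11, S100A13 and S100A16. Over 10660 genes the median difference was 0.40. The 4 members not detected in every raft with 1 cell were detected in more rafts with 2 cells, but the level of S100A4 was not higher. Genes in general did the same: the median number detected was 6853 with 1 cell and 9180 with 2 cells, and 75.0% of the 10660 genes were higher. The share of all genes that gained detection was not computed. S100P was detected in 6 of 10 rafts holding a pair of cells and in 2 of 10 holding a single cell, S100A14 in 6 with a pair and 3 with a single cell, and S100A2 in 10 with a pair and 7 with a single cell. S100A4 was detected in 10 with a pair and 9 with a single cell, and its median was 79.3 FPKM with a pair and 129 FPKM with a single cell. Ranges overlapped for all 9 members, and 0.00938% of genes were higher with ranges apart.

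The 4 most abundant members varied less between single cells than the median gene. Among rafts with 1 cell the coefficient of variation (SD over mean of FPKM) was 24.3% for S100A11, 33.9% for S100A16, 39.8% for S100A6, 44.1% for S100A10 and 76.3% for S100A13. Its median over the 1843 genes detected in all 10 rafts was 55.7%. Of those genes 1.1% varied less than S100A11 and 85.3% varied less than S100A13. With 2 cells per raft the value was 18.1% for S100A11, 18.8% for S100A6 and 20.9% for S100A16, beside a median of 46.8% over 4113 genes. The genes in this comparison were not matched on level.

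The spread of S100A13 followed the raft sets. With 1 cell, set 1 had 197, 264, 221, 455 and 434 FPKM and set 2 had 120, 31.9, 57.0, 96.3 and 89.02 FPKM. With 2 cells, set 1 had 239, 222, 287, 370 and 213 FPKM and set 2 had 21.0, 188, 80.1, 135 and 150 FPKM. In both, every raft of set 1 was above every raft of set 2. That held for 10 of 6718 genes (0.149%) that passed the filter on low values in both, and for 1 of the 7 members that did. The differences, set 1 minus set 2, were 2.03 with 1 cell and 1.49 with 2 cells on the log2 scale. S100A6 with 1 cell had 4331 to 7749 FPKM in set 1 and 2419 to 4566 FPKM in set 2, which overlap, and with 2 cells its difference was 0.17. Genes detected had a median of 8217 in set 1 and 5609 in set 2 with 1 cell, and the part of this gap in the S100A13 difference was not tested. S100A11 did not follow the sets, with differences of -0.01 and -0.13.

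Across the 34 libraries of bulk and of rafts and C1 captures with 1 or 2 cells, the correlations between members depended on the libraries used. The highest Pearson correlation between members was 0.66, for S100A6 and S100A13, and over the 20 rafts alone it was 0.76. S100A2 and S100A10 had 0.55 over the 34 libraries and 0.00 over the rafts. S100A2 and S100A16 had 0.54 over the 34 and 0.46 over the rafts. The neighbours S100A14 and S100A16 had 0.05 over the 34 and 0.35 over the rafts. These libraries share isolation method, set and number of genes detected, so the values are descriptions. Among 8510 genes, the pattern most like that of S100A6 was that of IGFBP3, a binding protein of insulin-like growth factors (r = 0.74). For S100A10 it was POLE4 (0.81), TMPO (0.80) and HINT2 (0.78), and for S100A4 SLC25A11 (0.77), C1orf122 (0.77) and UBE3A (0.74). The nearest to S100A14 was OCLN, the tight junction protein occludin (0.75), and to S100P ST6GALNAC1, a sialyltransferase (0.73). S100A16 was closest to ARL6IP4 (0.75), NAPRT1 (0.74) and VASP (0.71), S100A11 to STON2 (0.72), CHD8 (0.70) and KDM5B (0.67), S100A2 to C5orf30 (0.76) and S100A13 to POLB (0.70).

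The second experiment asked how rafts whose cells proliferated differed from those whose cells did not, under gemcitabine and without it. Many of its libraries correlated with bulk as weakly as the blanks did. The Spearman correlation with mean bulk across 10767 genes, written rho, was at least 0.25 in 22 of 32 proliferative and 12 of 32 nonproliferative libraries, while water libraries reached 0.20 and empty C1 captures 0.15. No member was detected in 6 proliferative and 11 nonproliferative libraries. The summed ductal epithelial markers had a median of 2989 FPKM in proliferative and 562 FPKM in nonproliferative libraries, and each ran down to 0. Fewer cells and less RNA per cell cannot be told apart in these rafts. The fit used the 52 libraries with at least 1000 genes detected, 26 of each class, and its p-values reflect only how rafts of an arm differ among themselves, since no separate cultures are named.

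S100A16 differed most between the classes among the members. It was detected in 22 of 26 proliferative libraries of the fit, with a median of 877 FPKM and a highest value of 2953 FPKM. It was detected in 13 of 26 nonproliferative libraries, with a median of 1.34 FPKM and a highest value of 2943 FPKM. Both classes reached down to 0 and their ranges overlapped. S100A6 was detected in 25 proliferative and 17 nonproliferative libraries of the fit, with a median of 3574 FPKM in proliferative and 1970 FPKM in nonproliferative libraries. S100A4 was detected in 16 proliferative libraries, with a median of 40.8 FPKM, and in 6 nonproliferative ones. S100A14 was detected in 15 proliferative libraries, with a median of 31.9 FPKM, and in 7 nonproliferative ones. The highest S100A4 value was 846 FPKM in proliferative and 415 FPKM in nonproliferative libraries, and that of S100A14 was 707 FPKM in proliferative and 92.5 FPKM in nonproliferative libraries. For both genes most nonproliferative libraries were listed at 0.

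These 4 members rose in proliferative rafts when averaged over the 4 arms, by limma on log2(FPKM + 1) with Benjamini-Hochberg adjustment over 11560 genes. The difference was 4.46 ± 1.14 (SE) for S100A16 (adjusted p = 0.0076, limma), 3.85 ± 1.25 for S100A6 (0.032), 2.77 ± 0.77 for S100A14 (0.014) and 2.40 ± 0.82 for S100A4 (0.040). All 9 had passed the filter on low values, and 4 of 9 members passed the test, against 11.4% of all genes higher and 0.753% lower, and none of the members was lower. The others were 2.90 ± 1.13 for S100A10 (adjusted p = 0.071, limma), 2.76 ± 1.27 for S100A11 (0.12), 1.46 ± 0.66 for S100A2 (0.12), 1.61 ± 0.97 for S100A13 (0.23) and 0.80 ± 0.83 for S100P (0.51). The median over the members was 2.76, beside 0.58 over all genes, which were not matched on level. In the libraries with rho of at least 0.25 these medians were 0.72 and 0.32.

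How many members passed depended on which libraries entered. In the 34 libraries with rho of at least 0.25, S100A16 was the only member to pass, at 2.64 ± 0.50 (adjusted p = 0.0017, limma), against 0.714% of 10083 genes called higher. There S100A6 was detected in all 22 proliferative and all 12 nonproliferative libraries, with a median of 3574 FPKM in proliferative and 4196 FPKM in nonproliferative libraries, and its difference was -0.02 ± 0.27. S100A11 and S100A10 were likewise detected in all 34, with differences of -0.38 ± 0.26 and 0.72 ± 0.50. S100A14 was at 2.07 ± 1.08 and S100A4 at 1.57 ± 1.09. With genes detected per library added as a covariate no member passed, and S100A16 was at 3.66 ± 1.13 (adjusted p = 0.066, limma), with 5 of 9 members and 18.5% of all genes at an unadjusted p under 0.05. Leaving out 1 library at a time, S100A16 and S100A14 passed in all 52 fits, S100A6 in 44, S100A4 in 31, S100A10 in 7 and S100A11 in 1.

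**Figure D2:**
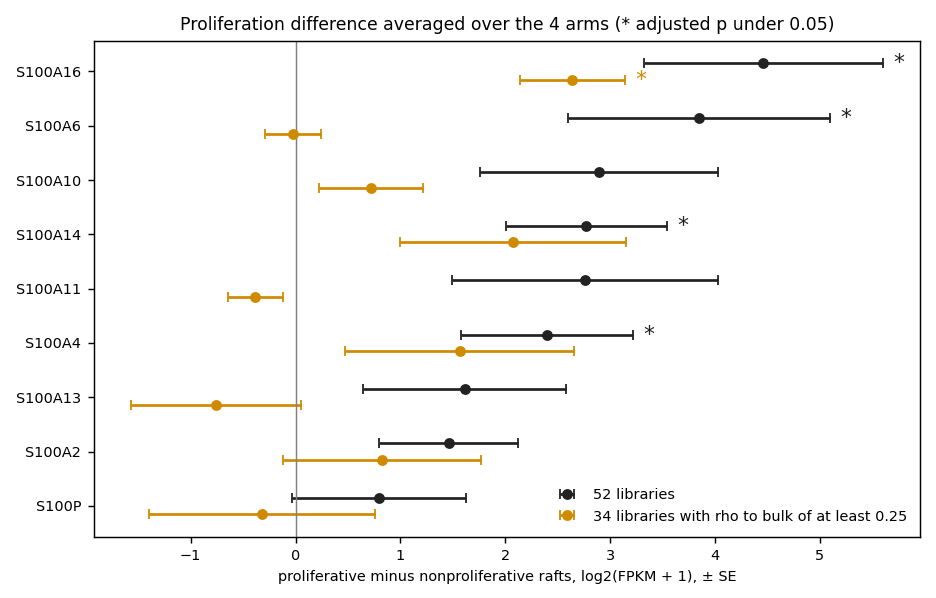
Proliferative minus nonproliferative difference of each member on the x axis, in log2(FPKM + 1) with SE, averaged over the 4 arms. Black points are the fit of 52 libraries and ochre points that of the 34 libraries with rho of at least 0.25, where S100A16 at 2.64 keeps its asterisk and S100A6 is at -0.02.

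Within single arms no member passed in the fit of 52 libraries, and neither did the test of whether the proliferation difference varied between arms (adjusted p of 1.00 for all 9, limma). At an unadjusted p under 0.05 there were 2 members in the untreated arm, 2 in saline, 5 at 2 nM and 0 at 5 nM. Over all genes 0, 0, 2 and 0 were called in the same arms (0%, 0%, 0.0173% and 0%), and 808, 1272, 1348 and 1030 genes had an unadjusted p under 0.05. The S100A16 difference was 5.40 in untreated, 4.25 in saline, 4.57 at 2 nM and 3.63 at 5 nM rafts. For S100A6 it was 3.02, 4.61, 5.60 and 2.17 in the same order.

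Among libraries with rho of at least 0.25, the classes had separate S100A16 ranges at 5 nM and in the untreated arm, and overlapping ones in saline and at 2 nM. The proliferative rafts at 5 nM had 180, 634, 534, 763 and 2953 FPKM, and the nonproliferative rafts had 38.1 and 26.8 FPKM with 1 listed at 0. These ranges did not overlap, with proliferative rafts higher, which held for 4.06% of the genes detected in at least 5 of these 8 libraries. A further nonproliferative raft at 5 nM, with rho of 0.17, had 2943 FPKM. Untreated proliferative rafts over the limit had 917, 1638, 1754 and 1549 FPKM, and untreated nonproliferative rafts had 20.9 and 384 FPKM. There 15% of 675 genes were higher with ranges apart, counting those at 1 FPKM or more in 5 or all 6 of these libraries. The untreated separation of S100A16 is thus near the background. In the saline arm the proliferative rafts over the same limit ran from 734 to 2607 FPKM, and the nonproliferative rafts had 2437, 1077, 988 and 2180 FPKM, within that range. At 2 nM the proliferative rafts ran from 593 to 1680 FPKM, and the nonproliferative rafts had 838, 897 and 162 FPKM. In the fit of 34 libraries the proliferative minus nonproliferative difference at 5 nM was 6.04 ± 0.99 (adjusted p = 0.00026, limma), where 0.446% of 10083 genes were called higher. It was 3.96 ± 1.18 in untreated rafts (adjusted p = 0.10, limma), -0.29 ± 0.85 in saline and 0.85 ± 0.96 at 2 nM. In nonproliferative rafts 5 nM minus saline was -7.23 ± 1.04 (adjusted p = 3.5e-05, limma), where the median over all genes was -1.35 and 0.962% were called lower. For 5 nM minus 2 nM it was -5.60 ± 1.11 (adjusted p = 0.012, limma), with a median of -1.08 over all genes and 0.208% called lower. The test across arms gave an adjusted p of 0.023 for S100A16 (limma) and called 0.258% of all genes. In the fit of 52 libraries the 5 nM difference was 3.63 (adjusted p = 0.62, limma). The 5 nM value rests on 3 nonproliferative libraries and the untreated one on 2. Differences between arms cannot be told apart from differences between library pools.

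**Figure D3:**
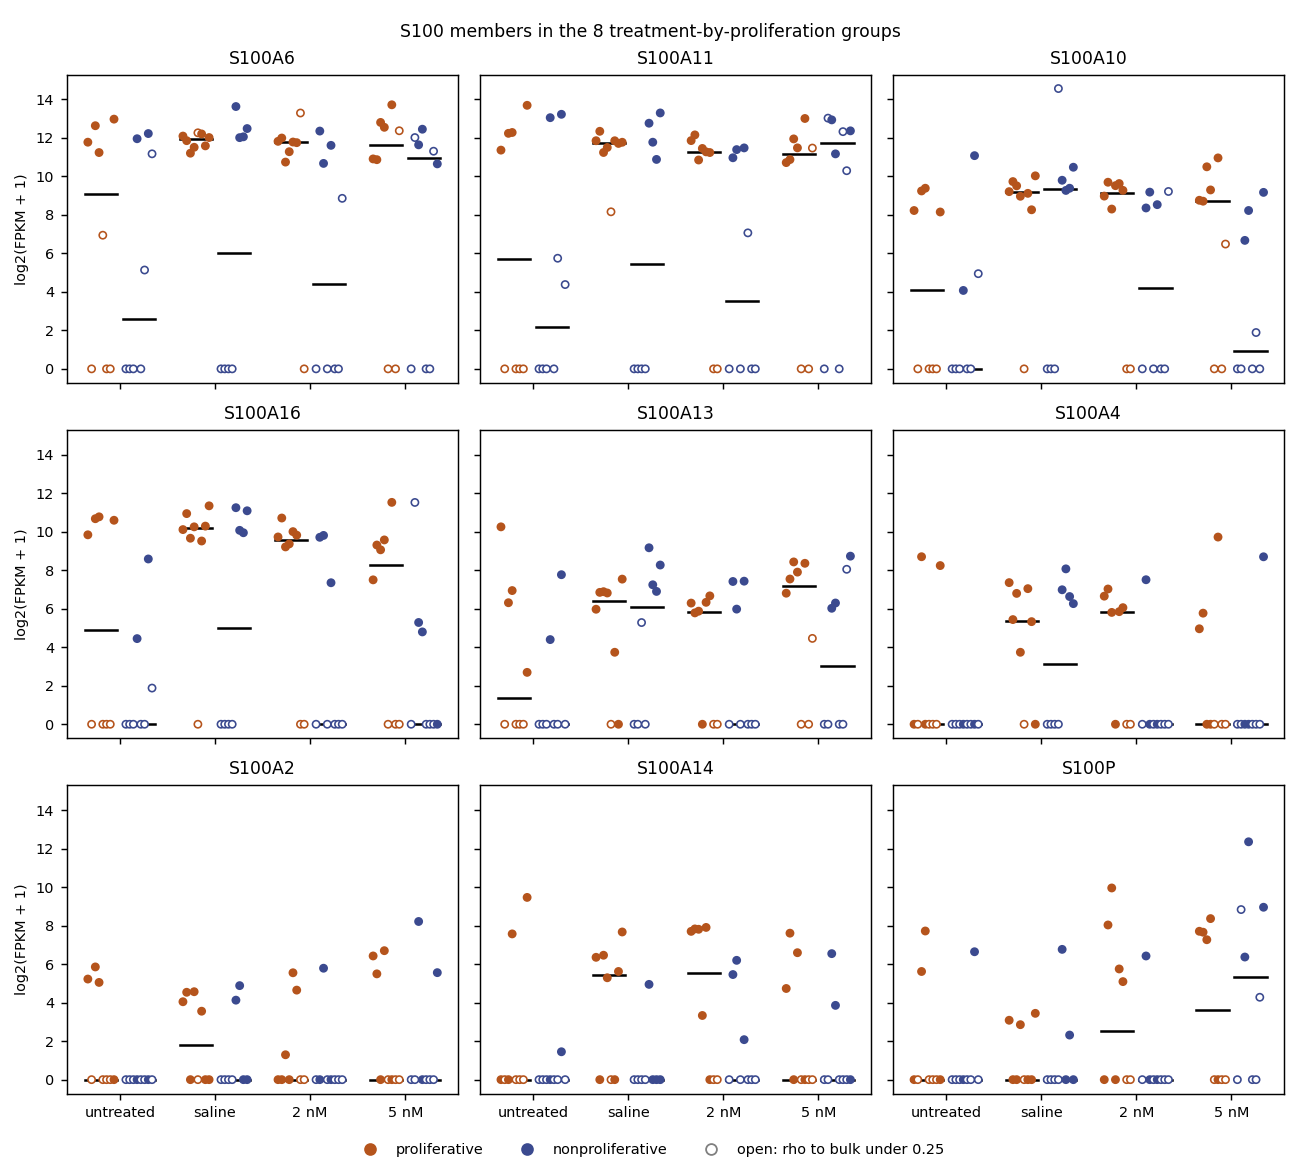
Level of each member, as log2(FPKM + 1) on the y axis, in proliferative (left of each pair) and nonproliferative rafts of the 4 arms on the x axis. Each point is a library, open where rho to bulk was under 0.25, and black lines are medians. In the S100A16 panel the filled nonproliferative points at 5 nM, at 0 to 38.1 FPKM, lie below the filled proliferative points at 180 FPKM or more, and the filled untreated points are apart in the same direction.

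In the fit of 52 libraries the treatment comparisons called no member in either class. Among all genes, 0.0692% were called for 5 nM minus saline, 0.0173% for 5 nM minus 2 nM and 0.00865% for saline minus untreated in proliferative rafts, and 0% in the other comparisons with limma, where 440 to 1683 genes had an unadjusted p under 0.05. S100P had the smallest p among the members. In nonproliferative rafts it was detected in 1 of 8 untreated, 2 of 8 saline, 1 of 8 at 2 nM and 5 of 8 at 5 nM. The values were 99.1 FPKM in the untreated raft, 108 and 3.98 FPKM in saline, 84.9 FPKM at 2 nM, and 456, 81.8, 5248, 18.4 and 496 FPKM at 5 nM. In proliferative rafts S100P had 48.2 and 210 FPKM in 2 untreated rafts, 7.49, 6.24 and 9.89 FPKM in 3 saline rafts, 262, 994, 52.9 and 33.1 FPKM in 4 rafts at 2 nM, and 208, 201, 153 and 329 FPKM in 4 at 5 nM. The other proliferative rafts of every arm were listed at 0, so the S100P ranges of all 4 arms overlapped. For 5 nM minus saline the difference was 4.53 ± 1.58 in nonproliferative rafts (p = 0.0048, adjusted p = 0.34, limma) and 3.09 ± 1.58 in proliferative rafts (p = 0.053, adjusted p = 0.34, limma). For 5 nM minus 2 nM in nonproliferative rafts it was 4.91 ± 1.58 (p = 0.0023, adjusted p = 0.58, limma). The comparisons with saline share its libraries, and treatment and library pool cannot be told apart in any comparison between arms. No other member had an unadjusted p under 0.05 in a gemcitabine comparison. In nonproliferative rafts 1520 of 11560 genes had one for 5 nM minus saline, so 1 of 9 members is near the background there. For 5 nM minus 2 nM 606 of 11560 genes had one (limma). The median differences over all genes were -0.835 for 5 nM minus saline and -0.251 for 5 nM minus 2 nM. S100A4 had one in saline minus untreated nonproliferative rafts, with a 95% interval of the difference from 0.62 to 7.37 (p = 0.021, adjusted p = 0.34, limma). There 4 of 8 saline rafts and none of 8 untreated rafts had it detected, and rho was at least 0.25 in 4 saline and 2 untreated rafts. In that comparison 1683 of 11560 genes had an unadjusted p under 0.05 (limma), so 1 of 9 members is near the background. The median difference over all genes was 1.22.

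**Figure D4:**
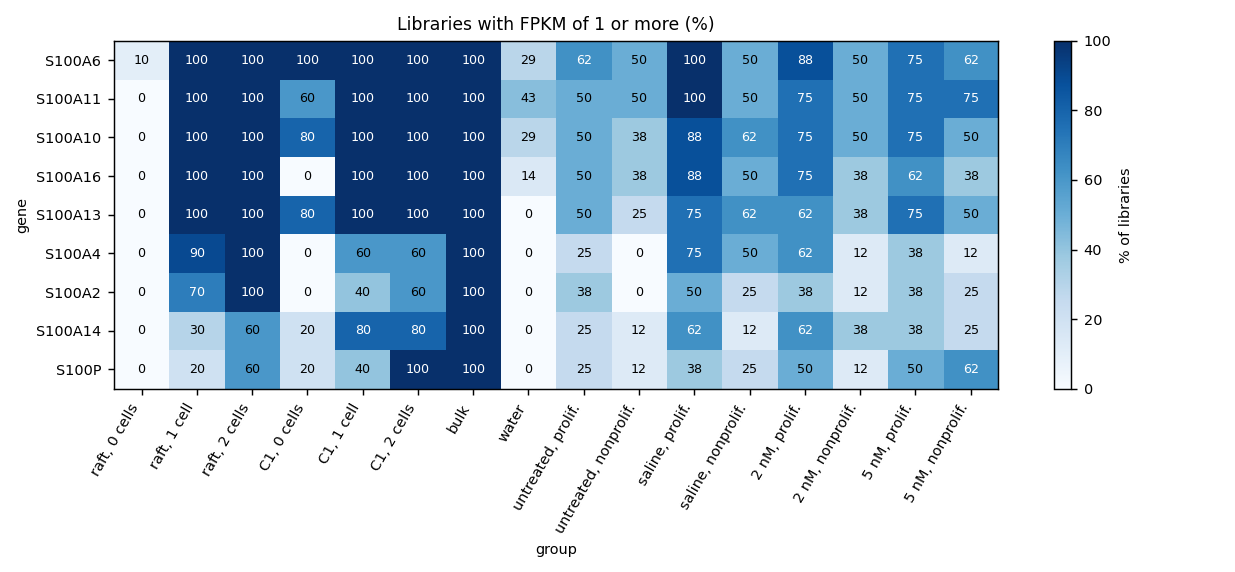
Percent of libraries in which each member (rows) had an FPKM of 1 or more, by group (columns). The 5 members at the top are detected in all rafts and C1 captures with 1 or 2 cells and in bulk, and S100P is detected in 5 of 8 nonproliferative rafts at 5 nM and in 1 of 8 at 2 nM.

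The rest of the family was close to silent. Of 11 other S100 genes with a row, S100A3 alone passed the filter of the fit, with detection in 2 of 10 rafts with 1 cell and a median of 5.51 FPKM in bulk. Its proliferation difference was 0.20 ± 0.54 (adjusted p = 0.81, limma). S100A8, S100A12 and S100A7, genes of myeloid and keratinocyte biology, were listed at 0 or under 1 FPKM in all rafts with 1 cell and all bulk libraries. S100A3 lies in the cluster between S100A4 and S100A2.

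Partners of S100 proteins were taken from a list of 12 genes, of which 11 had a row and 9 passed the filter. In proliferative rafts 2 of these 9 rose and none fell, against the 11.4% of all genes higher. ANXA11, an annexin, differed by 2.84 ± 0.81 (adjusted p = 0.016, limma) and EZR, the membrane linker ezrin that S100P binds, by 3.26 ± 1.04 (adjusted p = 0.029, limma). ANXA1, partner of S100A11, was at 2.70 ± 1.18 (adjusted p = 0.10, limma), CACYBP, the calcyclin-binding protein, at 2.34 ± 0.92 (0.072) and MYH9, the myosin heavy chain bound by S100A4, at 1.61 ± 0.68 (0.091). The receptor AGER was detected in no raft with 1 cell and in 1 of 4 bulk libraries, and FGF1 in none of either. ANXA1 itself had a median of 827 FPKM in rafts with 1 cell, 607 FPKM in C1 captures with 1 cell and 998 FPKM in bulk. ANXA2 was not analysed here.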

How the data were processed

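Per the labels' protocols, libraries used the SMARTer kit followed by Nextera XT. Per the submitters' processing notes the authors used RSEM and hg19, and they deposited 1 table of 30504 rows and 120 columns, read here as FPKM from its decimals and column totals (339644 to 817990). The aligner and annotation are not given in the sources used here, and depth is unknown. The members and gene lists were chosen with earlier results of these data known. Groups came from the labels, and raft sets from their titles. Classes and arms were compared in limma 3.58.1 (R 4.3.3) on log2(FPKM + 1), using limma-trend and two-sided tests at a Benjamini-Hochberg adjusted p of 0.05, in 1 fit of the 8 groups over 52 of 64 libraries with at least 1000 genes detected and 11560 genes at 1 FPKM or more in at least 8 of them. The script was tested on simulated data. Isolation groups were compared by values over genes detected in at least 5 libraries. The text names all 9 members, the other S100 genes, partners that passed, and the genes with the highest Pearson correlation among those at 1 FPKM or more in 17 of 34 libraries; partners that did not pass, S100A8, S100A12 and S100A7 were named after their values were seen. Alternatives were pseudocounts of 0.1 and 5, no gene filter, all 64 libraries, rho of at least 0.25, rescaled totals, quantile normalization, genes detected as a covariate, summed rows of a name and single libraries left out, the last chosen after seeing the data. Tables used Python 3.11.15, pandas 2.3.3 and numpy 2.4.6, and figures matplotlib 3.10.9.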

Additional observations from a re-analysis of the deposited data

Results flagged for a closer look

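A library was set apart where its gap to the nearest other library exceeded Dixon's 95% limit for the group on log2(FPKM + 1). That was so in 21 of 126 sets of a member and a group. Chance gives about 1 in 20 for normal values, a rate that does not apply to groups with many values at 0. A member detected in 1 library alone, with all others at 0, is always set apart. In 11 of the 21 the member was detected in 1 library of its group and listed at 0 in the others. These were S100P in an empty C1 capture (966.43 FPKM), a nonproliferative raft at 2 nM (84.94 FPKM) and an untreated nonproliferative raft (99.09 FPKM), S100A2 in a nonproliferative raft at 2 nM (54.29 FPKM), and S100A4 in nonproliferative rafts at 2 nM (181.09 FPKM) and 5 nM (415.09 FPKM). The others were S100A6 in an empty raft (527.8 FPKM), S100A14 in an empty C1 capture (82.4 FPKM), a saline nonproliferative raft (29.91 FPKM) and an untreated nonproliferative raft (1.73 FPKM), and S100A16 in a water library (1904.17 FPKM).

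A high library stood out among other detected ones for S100P in saline nonproliferative rafts (108.06 FPKM), S100A2 in C1 captures with 1 cell (99.43 FPKM), S100A10 in untreated nonproliferative rafts (2160.44 FPKM) and S100A16 in nonproliferative rafts at 5 nM (2943.22 FPKM). A low library stood out for S100A4 in rafts with 1 cell (0.0 FPKM), S100A6 in proliferative rafts at 2 nM (0.0 FPKM) and S100A14 in C1 captures with 2 cells (0.0 FPKM). The saline proliferative raft 5 was low for S100A10 (0.0 FPKM), S100A11 (284.99 FPKM) and S100A16 (0.0 FPKM), while its S100A6 was at 4919 FPKM. The same untreated nonproliferative raft, number 7, stood out for S100P, S100A10 and S100A14.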

How the results depend on the processing

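The 4 members that passed for proliferation averaged over arms became 2 with no gene filter, 2 with all 64 libraries, 1 with rho of at least 0.25 and 0 with genes detected as a covariate, and the share of all genes called, 12.1%, became 3.64%, 5.51%, 0.932% and 1.95% in the same order and 5.71% with quantile normalization. Under pseudocounts of 0.1 and 5, rescaled totals, quantile normalization and summed rows 3 or 4 members passed. Quantile normalization moved the median of all genes to 0.19, against 0.58 without it. S100A6 changed sign with rho of at least 0.25, at -0.024, where the other libraries of the fit, in many of which it was listed at 0, were left out. With those libraries 1 member, S100A16, also passed in the 5 nM arm, for 5 nM minus saline and for 5 nM minus 2 nM in nonproliferative rafts, and for the difference between arms, where 0 had passed, and where 0.446% of all genes were called higher, 0.962% and 0.208% lower and 0.258% by the test across arms, in that order. Leaving out 1 library at a time gave 2 to 6 passing members. It gave 2 without untreated proliferative raft 3, untreated nonproliferative raft 5, saline nonproliferative raft 1, 3 or 4, nonproliferative raft 4 or 6 at 2 nM, or nonproliferative raft 6 at 5 nM, and 6 without untreated proliferative raft 5. The median over the members for rafts minus C1 captures with 1 cell, 0.13, ran from -0.06 to 0.24 without each C1 capture in turn. All 99 alternative values of single members for that comparison, and all 54 for rafts with 2 cells minus 1 cell, moved by less than 1 SD between libraries. Of 288 counts of libraries detected, with detection set at an FPKM of 5 or above 0, 3 moved by over 1.5 times. The table gives no counts, so what depth limits cannot be stated. No paired analysis was possible because the labels give no replicate numbers shared between groups, and numbers were given in accession order.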
